A study of Mus musculus with 6 samples.

Results

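Genes of the extracellular matrix, of fibroblasts and of smooth muscle were read in RNA from lung B cells that had been isolated by magnetic sorting. The set holds 37 genes of the 22481 in the table, chosen by symbol, and all 37 were found: 24 matrix genes, 6 fibroblast receptors and regulators, and 7 genes of smooth muscle and pericytes. The 2 genotypes were 5xFAD, with 3 samples, and wild type (WT), with 3 samples, all from C57BL/6 mice aged 3 months. 5xFAD mice express mutant human genes of familial Alzheimer's disease, including APP, from a Thy1 promoter active in neurons, and develop amyloid plaques in brain. The labels name no sex, litter or day and leave it unsaid whether any 2 samples shared an animal. Every p-value here therefore refers to the spread among samples, part of which may be technical. The study's title sets lung B cells beside Alzheimer-like pathology, and the comparison asks whether their messenger RNA differed between genotypes.

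B cells make little interstitial matrix. In lung, fibroblasts secrete the fibrillar collagens and the elastic fibre that lets the alveolus recoil, while endothelium, epithelium and pericytes add the collagen IV of basement membranes. Smooth muscle of airways and vessels is told from fibroblasts by a contractile set that includes Acta2, Myh11, Tagln and Cnn1. In bulk RNA, fewer cells of a type and less RNA per cell cannot be told apart.

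The libraries were shallow and mixed. Estimated counts summed to between 628581 and 782297 per library, of which the single gene Lars2 held between 37.5% and 45.7%. The labelled cell type was checked against 14 B cell markers, which summed to 868, 909 and 496 FPKM (fragments scaled to transcript length and library size) in 5xFAD replicates 1, 2 and 3, and to 448, 375 and 446 FPKM in WT replicates 1, 2 and 3. None of the 14 was at 0 in all libraries. The 13 endothelial markers summed to 459, 455 and 373 FPKM in 5xFAD and to 514, 674 and 555 FPKM in WT, so non-B-cell RNA was plentiful in both genotypes.

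The matrix was well represented, and contractile smooth muscle hardly at all. The 37 genes summed to 404, 373 and 572 FPKM in the 5xFAD libraries and to 491, 570.5 and 421 FPKM in the WT libraries. These sums were of the same order as those of the endothelial markers. The 24 matrix genes alone summed to 346 ± 115 FPKM in 5xFAD and 323 ± 55.7 FPKM in WT (SD, n = 3 each). The 6 fibroblast genes summed to 85.3 ± 16.6 FPKM in 5xFAD and 157 ± 20.9 FPKM in WT. The 7 smooth muscle and pericyte genes summed to 18.6 ± 7.30 FPKM in 5xFAD and 14.3 ± 4.01 FPKM in WT, far below the matrix genes in either genotype. The genes highest per length over all 6 libraries were Inmt at a mean of 52.9 FPKM, Sparc at 49.4, Limch1 at 40.9, Mgp at 39.5 and Bgn at 37.6 FPKM, and the lowest was Lum, which was listed at 0 throughout.

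**Figure D1:**
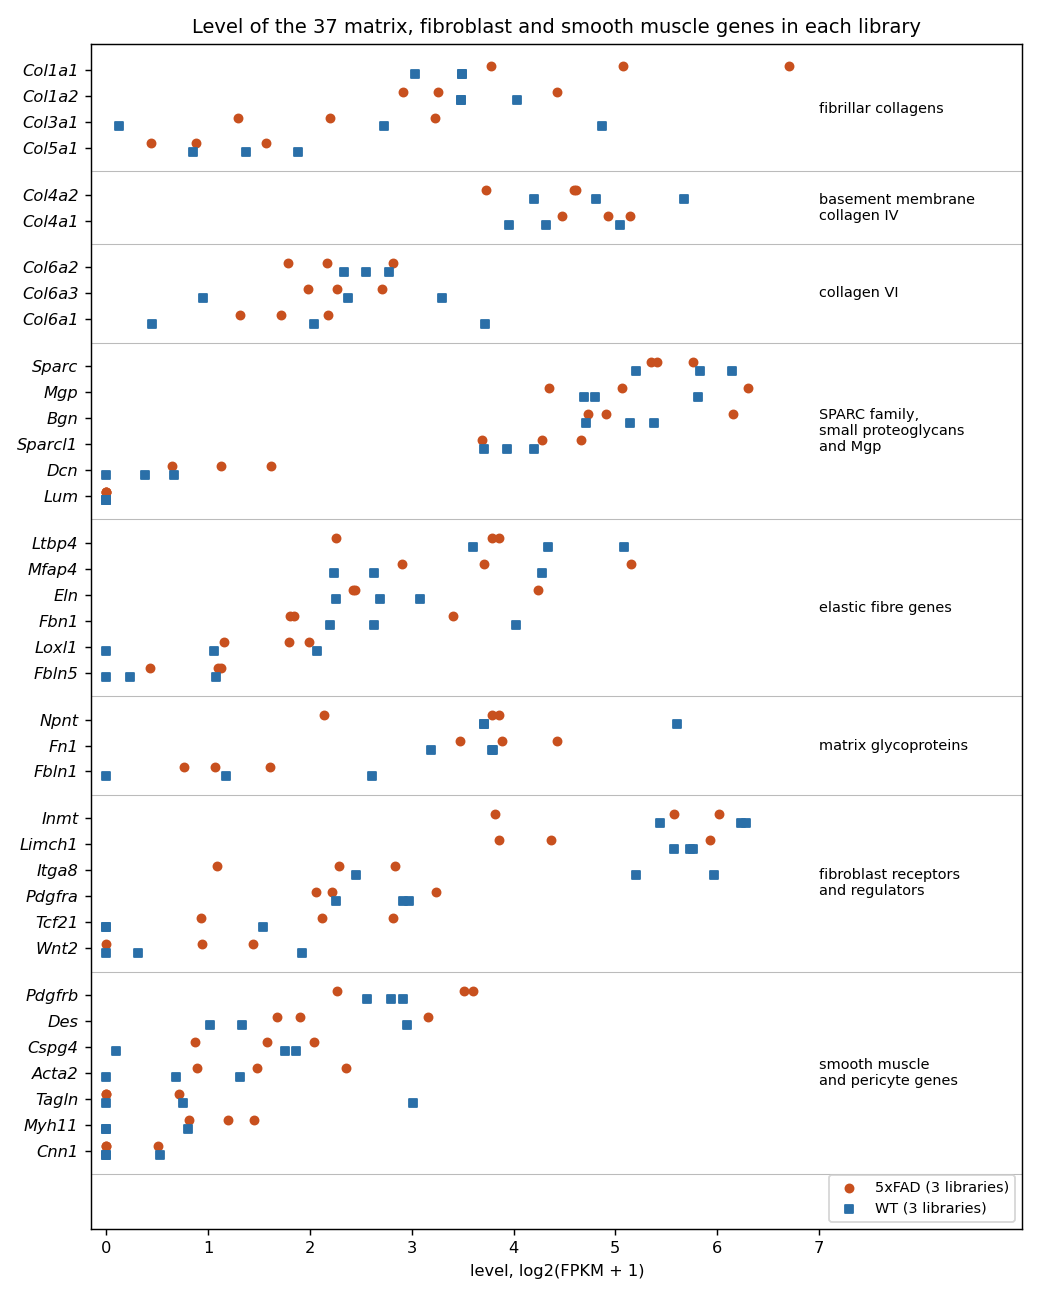
Level of each of the 37 genes on the log2(FPKM + 1) scale, with 1 point per library (circles, 5xFAD; squares, WT) and genes ordered by mean level within their role. The contractile genes at the bottom lie near 0 in most libraries, while Sparc, Mgp, Bgn, Inmt and Limch1 lie well to the right, and the genotypes overlap in nearly every row.

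None of these genes differed between genotypes by the test across all genes. Of the 37, 31 had a mean of at least 1 FPKM and were tested, and 6 (Wnt2, Dcn, Myh11, Fbln5, Cnn1 and Lum) were not. With edgeR's quasi-likelihood test on estimated counts, 0 of the 31 passed a Benjamini-Hochberg adjusted p of 0.05, where 0.114% of the 9651 tested genes did, 0.104% as higher and 0.0104% as lower. The count at an unadjusted p under 0.05 was also 0 of 31, against 12.0% of all tested genes, of which 8.46% were higher and 3.55% lower in 5xFAD, as shares of all tested genes. DESeq2 likewise called 0 of the 31, and 63 of all tested genes. Limma on log2(FPKM + 1) called 0 of all tested genes, so its 0 of the 31 says nothing particular of the members. At an unadjusted limma p under 0.05 there were 2 members, and over the 9651 genes 887 higher and 261 lower. Col1a1, higher in 5xFAD, was 1 of the 2. The smallest edgeR adjusted p was 0.449, for Mfap4. The fold change of 5xFAD over WT on the log2 scale was positive for 15 genes and negative for 16, where 54.1% of all tested genes had a positive one, with a median of -0.27 against 0.11 over all tested genes. Standard errors ran from 0.33 to 1.94, and on simulated counts for the 9651 genes 0% of genes changed 2-fold, 18% of those changed 4-fold and 50% of those changed 8-fold were recovered. These rates are for genes drawn from all those tested, whose median standard error was 1.07, against 0.59 for the members.

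**Figure D2:**
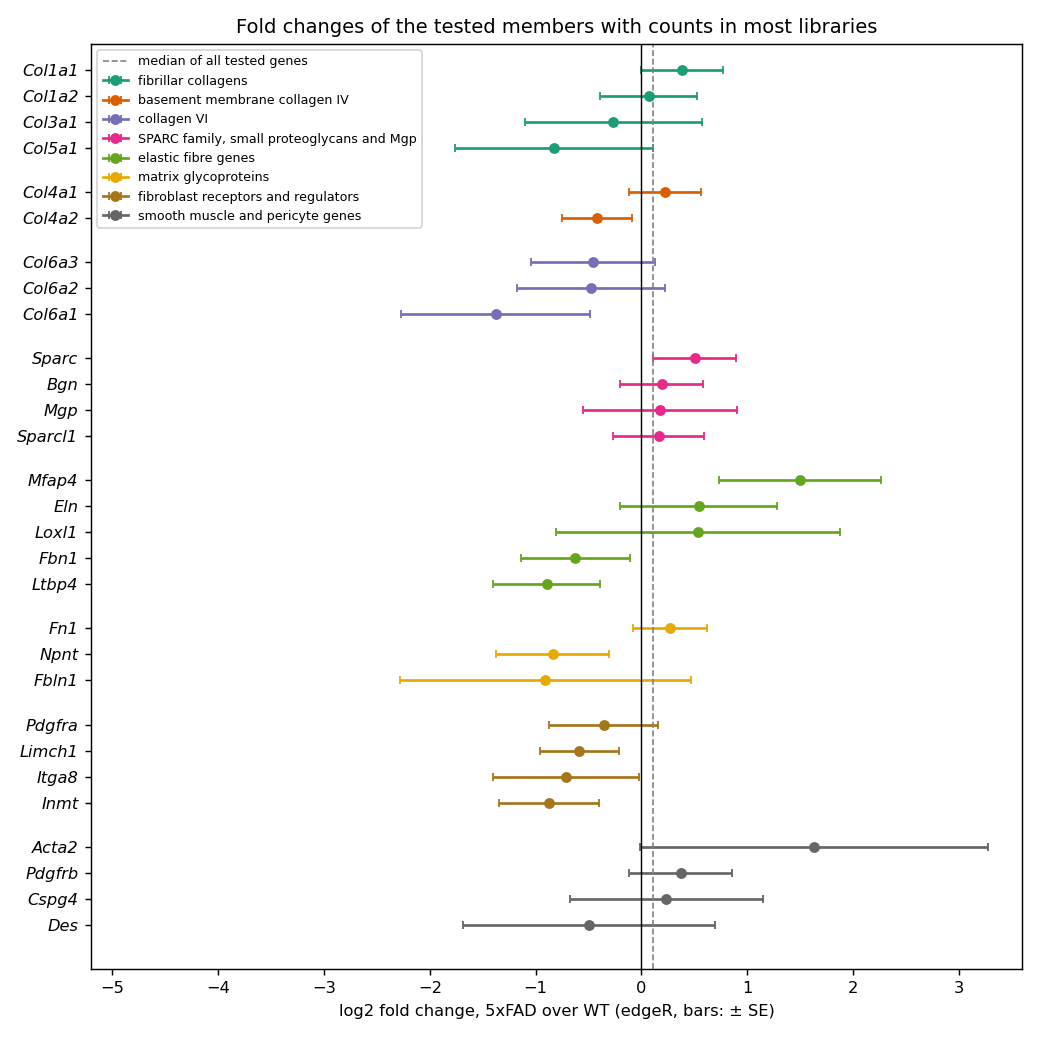
Log2 fold change of 5xFAD over WT from edgeR with its standard error, for the 29 tested genes that were not listed at 0 in 2 or more libraries of a genotype, coloured by role, with the median of all tested genes as a dashed line. The fibroblast genes Pdgfra, Limch1, Itga8 and Inmt all lie left of 0. The fibroblast gene Tcf21 is not drawn and had a positive value, 2.06 (SE 1.76). Tagln, also not drawn, had -3.41 (SE 1.94). The SPARC, proteoglycan and Mgp group lies right of 0 (Sparc turns negative in FPKM, Mgp without 5xFAD replicate 3), and no gene passed the adjusted threshold.

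Among the fibrillar collagens, the main tensile fibres of interstitial matrix, Col1a1 and Col1a2 were read in every library. Col1a1 (ENSMUSG00000001506, chromosome 11, 94936224 to 94953042 of GRCm38) encodes the major chain of type I collagen. It had 103, 12.8 and 32.7 FPKM in the 5xFAD libraries and 10.2, 10.2 and 7.16 FPKM in the WT libraries. Each 5xFAD library lay above each WT library, as was so, in the higher direction, for 13.0% of all tested genes. The estimated counts were much closer, at 117, 150 and 196 in 5xFAD and 121, 121 and 84.2 in WT, and overlapped. Scaled with TMM factors (the trimmed mean of ratios between libraries) to CPM, the counts each library would have at a common depth, they were 190, 183 and 270 in 5xFAD and 170, 179 and 141 in WT, again without overlap, as for 12.4% of all tested genes in that direction. The difference on counts had a log2 value of 0.38 (SE 0.39; edgeR adjusted p = 0.769).

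Col1a2, the second chain of type I collagen, had 8.57, 6.52 and 20.5 FPKM in 5xFAD and 10.2, 15.4 and 10.2 FPKM in WT. The highest and the lowest values were both in 5xFAD libraries, with a log2 fold change of 0.07 (SE 0.46; edgeR adjusted p = 0.976). Col3a1, the type III collagen of reticular fibres, was the most uneven of the group within a genotype, with 15.96, 89.9 and 39.4 estimated counts in 5xFAD and 0.989, 25.1 and 114 in WT. Col5a1, a type V chain that regulates fibril width, had 1.054 ± 0.824 FPKM in 5xFAD and 1.69 ± 0.946 FPKM in WT (SD, n = 3 each). Both Col3a1 and Col5a1 overlapped between genotypes.

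The basement membrane chains Col4a1 and Col4a2 had the most reads of the set together with Fn1. Col4a1 had 256, 281 and 453 estimated counts in 5xFAD and 192, 333 and 250 in WT, and Col4a2 had 158, 258 and 302 in 5xFAD and 303, 348 and 224 in WT. The fold changes of the pair had opposite signs, 0.22 (SE 0.34; edgeR adjusted p = 0.862) for Col4a1 and -0.42 (SE 0.33; edgeR adjusted p = 0.686) for Col4a2. The table gives both chains 1 shared locus on chromosome 8, 11187755 to 11449287. The libraries were stranded, and whether the counting used strand is not stated in the labels. The genes run in opposite directions from neighbouring starts. By RefSeq on GRCm38.p6, Col4a2 starts at 11312805 on the plus strand and Col4a1 at 11312826 on the minus strand, so their first 22 bases overlap. These bases are shown as the stretch where the pair overlaps. The plus strand of chr8:11312801-11312830 reads as follows, with the shared bases in capitals.
Col4a2 and Col4a1: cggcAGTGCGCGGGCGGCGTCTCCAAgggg
Summed over their locus, the pair had a log2 fold change of -0.07 (edgeR adjusted p = 0.963).

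Collagen VI forms beaded filaments that tie cells to the interstitial matrix, and its 3 chains, which assemble together, all had negative fold changes without passing the test. Col6a2 had 2.45, 3.49 and 6.04 FPKM in 5xFAD and 5.84, 4.86 and 4.03 FPKM in WT (log2 fold change -0.48, SE 0.70; edgeR adjusted p = 0.853). Col6a3 had 3.82, 2.96 and 5.52 FPKM in 5xFAD and 0.932, 8.82 and 4.19 FPKM in WT (log2 fold change -0.45, SE 0.59; edgeR adjusted p = 0.830). The lowest and the highest Col6a3 values were both in WT libraries, and without WT replicate 2 its log2 fold change was 0.18. Col6a1 spread most, with 11.97, 28.4 and 18.3 estimated counts in 5xFAD and 2.97, 25.1 and 97.7 in WT, so that WT replicate 3 alone held most of its WT reads.

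Sparc, Mgp, Bgn, Sparcl1, Dcn and Lum together had the highest summed FPKM of the 6 matrix roles in 5 of the 6 libraries. Sparc, a collagen-binding matricellular protein that endothelium also makes, had 39.8, 41.4 and 53.5 FPKM in 5xFAD and 69.9, 56.2 and 35.8 FPKM in WT. Its estimated counts ran the other way, at 163, 134 and 221 in 5xFAD and 125, 140 and 78.0 in WT, with a log2 fold change of 0.50 (SE 0.39; edgeR adjusted p = 0.683). On both scales the genotypes overlapped. Mgp, matrix Gla protein, an inhibitor of calcification, had 32.4, 19.4 and 78.2 FPKM in 5xFAD and 26.8, 55.1 and 24.9 FPKM in WT (log2 fold change 0.18, SE 0.73; edgeR adjusted p = 0.956). Biglycan, Bgn, a small leucine-rich proteoglycan, stood at 41.7 ± 25.0 FPKM in 5xFAD and 33.4 ± 7.81 FPKM in WT (SD, n = 3 each). For Mgp and Bgn, 5xFAD replicate 3 was the highest of the 6 libraries. Sparcl1, a relative of Sparc, had 18.2 ± 6.20 FPKM in 5xFAD and 14.6 ± 2.66 FPKM in WT.

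The other small proteoglycans, decorin and lumican, were nearly absent beside biglycan. Dcn had 3.99, 1.89 and 7.34 estimated counts in 5xFAD and 1.98, 1.004 and 0 in WT. Lum was listed at 0 in all 6 libraries. A limit of 3 counts, taken as the highest mean count likely behind a reading of 0, equals between 3.83 and 4.77 CPM at these totals. Estimated counts of exactly 0 can also be failed estimates of the authors' software. Dcn and Lum mark adventitial fibroblasts, and Inmt, Npnt and Limch1 are high in alveolar fibroblasts of mouse lung. Other genes of lung mesenchyme were low, with means over all 6 libraries of 5.40 FPKM for Pdgfra, 2.03 for Tcf21 and 0.94 for Wnt2. The set was therefore uneven across genes that fibroblasts are known for, and the type of fibroblast was not tested.

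Elastic fibre genes split in direction. Ltbp4, which is needed for elastic fibre assembly and binds latent TGF-beta, had 18.0, 118 and 82.6 estimated counts in 5xFAD and 90.0, 183 and 82.1 in WT (log2 fold change -0.90, SE 0.51; edgeR adjusted p = 0.505). Mfap4, a microfibril-associated protein, had 39.9, 17.0 and 111 estimated counts in 5xFAD and 11.9, 26.1 and 16.6 in WT, the largest positive log2 fold change among the 22 members with at least 5 counts in every library (1.497, SE 0.77; edgeR adjusted p = 0.449). Without 5xFAD replicate 3 the Mfap4 value was 0.47, and limma on log2(FPKM + 1) gave 0.87. Its 5xFAD replicate 2 lay inside the WT range, so the genotypes overlapped. Mfap4 shares its locus with Mapk7.

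Eln, the elastin precursor itself, had 4.42, 4.38 and 17.9 FPKM in 5xFAD and 3.79, 7.48 and 5.45 FPKM in WT. Fbn1, fibrillin of the microfibril scaffold, had 4.90 ± 4.10 FPKM in 5xFAD and 8.03 ± 6.35 FPKM in WT (SD, n = 3 each). The cross-linking enzyme Loxl1 and the elastin-binding Fbln5 were weak, with at most 20.8 and 13.8 estimated counts in a library and both at 0 in WT replicate 3. None of these 4 separated the genotypes.

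Of the 3 matrix glycoproteins, Fn1, fibronectin, which links matrix to cell surface integrins, had 10.1, 13.8 and 20.5 FPKM in 5xFAD and 12.8, 12.9 and 8.13 FPKM in WT (log2 fold change 0.27, SE 0.35; edgeR adjusted p = 0.829). Npnt, nephronectin, a ligand of the integrin alpha 8 chain, had 25.9, 95.5 and 81.6 estimated counts in 5xFAD and 61.3, 216 and 47.8 in WT (log2 fold change -0.84, SE 0.54; edgeR adjusted p = 0.579). The negative value rested on WT replicate 2, and without it the log2 fold change of Npnt was 0.11. Fbln1 had at most 14.7 estimated counts in 5xFAD, and 36.6, 9.04 and 0 in WT.

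Of 5 tested fibroblast receptors and regulators, 4 had negative fold changes and 0 were called. Inmt, an amine N-methyltransferase highly expressed in mouse lung (ENSMUSG00000003477, chromosome 6, 55170626 to 55175043), had 13.1, 63.8 and 46.7 FPKM in 5xFAD and 42.4, 77.0 and 74.2 FPKM in WT (log2 fold change -0.87, SE 0.47; edgeR adjusted p = 0.480). 5xFAD replicate 1 was the lowest library, while the other 5xFAD libraries lay within the WT range. Limch1, an activator of non-muscle myosin that is also found outside fibroblasts, had 60.01, 19.7 and 13.5 FPKM in 5xFAD and 52.2, 53.4 and 46.8 FPKM in WT, with 5xFAD replicate 1 above every WT library. In estimated counts Limch1 had 106, 140 and 110 in 5xFAD and 157, 179 and 152 in WT, so here each 5xFAD library lay below each WT library. Scaled for library size this also held, as it did, in the lower direction, for 5.89% of all tested genes, with a log2 fold change of -0.59 (SE 0.37; edgeR adjusted p = 0.572).

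Itga8, the integrin alpha 8 chain of myofibroblasts, had 1.13, 6.14 and 3.87 FPKM in 5xFAD and 61.8, 36.0 and 4.48 FPKM in WT. Its estimated counts were 12.97, 52.0 and 37.6 in 5xFAD and 78.1, 58.3 and 16.6 in WT, which overlap (log2 fold change -0.71, SE 0.69; edgeR adjusted p = 0.751). Pdgfra, the platelet-derived growth factor receptor of alveolar fibroblasts and their progenitors, was close to even, at 5.08 ± 2.90 FPKM in 5xFAD and 5.73 ± 1.69 FPKM in WT (SD, n = 3 each). The transcription factor gene Tcf21, a regulator of lung mesenchyme, had 1.99, 13.2 and 7.34 estimated counts in 5xFAD and 0, 0 and 4.16 in WT. Its log2 fold change, positive unlike the other tested fibroblast genes, was 2.06 (SE 1.76, edgeR adjusted p = 0.715), on at most 13.2 estimated counts in a library. Wnt2, a ligand of lung mesenchyme, had at most 9.04 in any library.

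As a group, the 6 fibroblast genes did not overlap in summed FPKM, at 79.8, 104 and 72.2 in 5xFAD and 160, 176 and 134 in WT, but they did in CPM scaled with TMM factors, at 320, 528 and 401 in 5xFAD and 515, 711 and 676 in WT. The mean difference of the log2 sums was -0.89 in FPKM and -0.62 in scaled CPM. The FPKM sums include Itga8 and Limch1, whose FPKM per count ranged 9.09 and 4.64 times between libraries. The part of these genes in the separation was not tested. No p is given for such sums, since the genes were chosen with results of these data known. No endothelial or epithelial marker was called by edgeR's adjusted p. Of 13 tested endothelial markers, 12 had a negative log2 fold change, 3 of them at an unadjusted edgeR p under 0.05. Of 7 tested epithelial markers 6 had a negative one, 1 of them at that level. Over all tested genes 3.55% were lower at that level, and 54.1% had a positive fold change. Epithelial markers summed to 235, 226 and 184 FPKM in 5xFAD and to 204, 405 and 412 FPKM in WT. Of the 9 epithelial markers Foxj1 was at 0 in all libraries, and of the 13 endothelial markers none was. All 14 B cell markers had positive fold changes and 0 were called. At an unadjusted edgeR p under 0.05 there were 7 of the 14, against 8.46% of all tested genes in that direction. The part of these other cells in the fibroblast values was not tested.

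**Figure D3:**
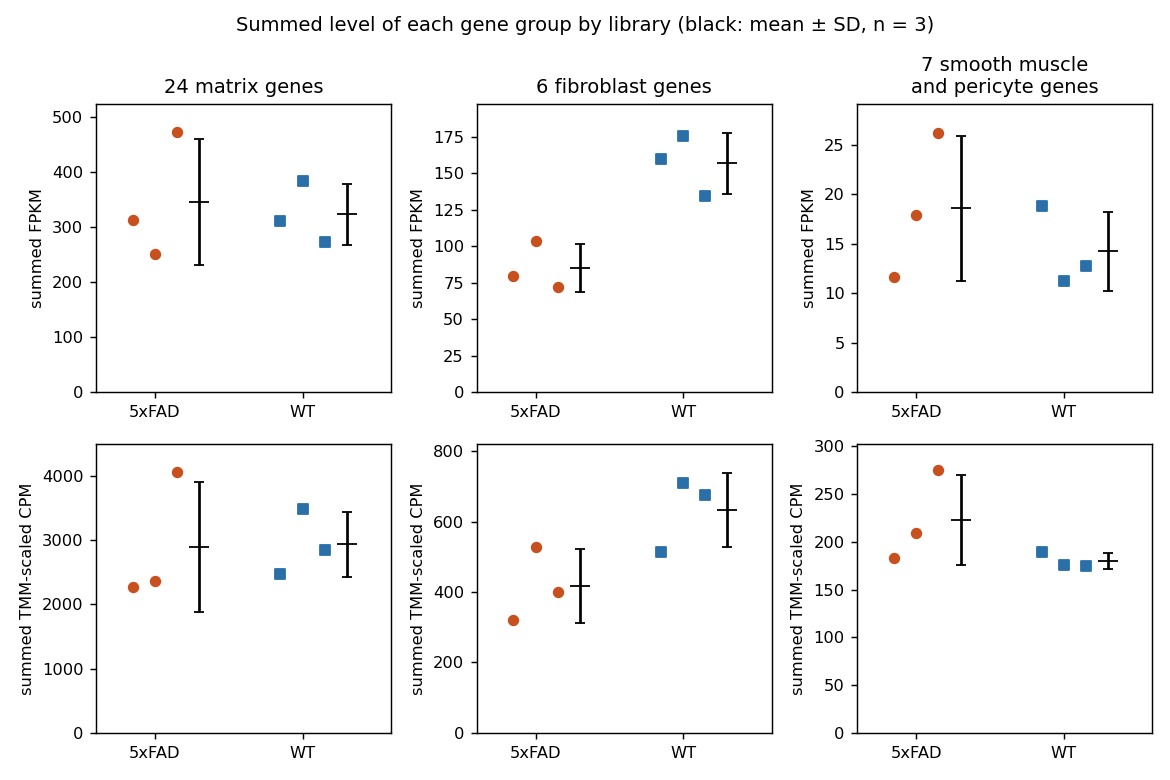
Summed level of the 24 matrix, 6 fibroblast, and 7 smooth muscle and pericyte genes in each library, in FPKM above and in CPM scaled with TMM factors below (points, libraries; black, mean ± SD, n = 3). The fibroblast sums separate the genotypes in FPKM, at 72.2 to 104 in 5xFAD against 134 to 176 in WT, and overlap in scaled counts. They include Itga8 and Limch1, whose FPKM per count varied between libraries. The matrix and smooth muscle sums overlap on both scales.

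Smooth muscle and pericyte genes were led by the pericyte receptor Pdgfrb, which mesenchymal cells use to respond to endothelial platelet-derived growth factor. It had 3.81, 11.1 and 10.4 FPKM in 5xFAD and 4.89, 6.56 and 5.92 FPKM in WT (log2 fold change 0.37, SE 0.49; edgeR adjusted p = 0.834). Des, the muscle intermediate filament desmin, had 2.20, 2.74 and 7.94 FPKM in 5xFAD and 1.52, 1.03 and 6.74 FPKM in WT (log2 fold change -0.49, SE 1.19; edgeR adjusted p = 0.926). On the FPKM scale its difference was positive, and without WT replicate 3 its log2 fold change on counts was 1.53. Cspg4, the pericyte proteoglycan NG2, had 49.9, 13.2 and 32.1 estimated counts in 5xFAD and 42.5, 38.2 and 1.04 in WT. All 3 overlapped between genotypes.

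The contractile genes were at the edge of detection. Acta2, smooth muscle actin, had 5.98, 2.84 and 13.8 estimated counts in 5xFAD and 4.94, 2.01 and 0 in WT. Tagln, the actin-binding transgelin, had 0, 1.89 and 0 in 5xFAD and 20.8, 2.01 and 0 in WT. Cnn1, calponin, had 0, 1.89 and 0 in 5xFAD and 1.98, 0 and 0 in WT. Myh11, smooth muscle myosin heavy chain, had 9.97, 17.0 and 22.9 estimated counts in 5xFAD and 9.89, 0 and 0 in WT. The counts of a library are mostly whole multiples of a step near 1, and in such steps 5xFAD replicate 1 equalled WT replicate 1. In scaled CPM the 5xFAD values lay above the WT values, as they did for 12.4% of all tested genes, and with a mean level below 1 FPKM Myh11 was not tested. Without the filter on level its unadjusted edgeR p was 0.144. The loci of Acta2 and Tagln hold 8 and 4 listed genes.

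The promoters of Col1a2 and Acta2 are shown side by side as those of a fibrillar collagen with at least 62.8 estimated counts in each library and of the defining smooth muscle gene with at most 13.8. Each is the last 120 bases before the RefSeq start on GRCm38.p6, 5′ to 3′ on the strand of the gene: chr6:4505498-4505617, plus strand, and chr19:34255374-34255493, minus strand.
Col1a2: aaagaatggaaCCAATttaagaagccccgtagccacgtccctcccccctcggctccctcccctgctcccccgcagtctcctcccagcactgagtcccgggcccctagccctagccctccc
Acta2: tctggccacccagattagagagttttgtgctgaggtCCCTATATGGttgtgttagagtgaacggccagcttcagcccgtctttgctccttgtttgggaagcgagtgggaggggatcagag
The capitals mark a CCAAT motif in Col1a2 and a CArG box, the serum response factor element of muscle genes, in Acta2. The form marked allows any base at the third place and only A or T at the other inner places. Stretches with another base there, such as ccttgtttgg further along the Acta2 promoter, were not searched for and stay in lower case. Both strands of the 250 bases before each start were searched. The 25 members with a promoter in the table have 33 windows, some having several starts. CCAAT was found in 8 of the 33 and in 33.8% of all 32851 windows. The relaxed CArG box was found in 1 of the 33, that of Acta2, and in 2.99% of all windows, and the strict CArG box in 0 of the 33 and in 1.47% of all windows. A match describes letters and shows no binding.

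FPKM and counts disagreed for several of these genes, and the FPKM given per count was not fixed across libraries. For Fn1, Pdgfra, Pdgfrb and Inmt, FPKM per count differed by at most 1.01 times between libraries. For Col1a1 it was 0.885 in 5xFAD replicate 1, 0.167 in 5xFAD replicate 3 and 0.0849 to 0.0850 in the other 4 libraries, a range of 10.4 times. For Itga8 the range was 9.09 times, with 0.792 and 0.617 in WT replicates 1 and 2, and for Limch1 it was 4.64 times. Over the 33 members with at least 5 counts in 2 or more libraries, 14 (42.4%) ranged over 1.5 times, as did 49.1% of tested genes. The FPKM differences of Col1a1 and Itga8 between libraries had no counterpart of that size in the counts.

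FPKM divides by transcript length, and these genes have transcripts of very different length. GENCODE M21 lists 4 transcripts of Col1a1 from 337 to 5930 bases, 7 of Itga8 from 488 to 5812 bases and 18 of Limch1 from 360 to 5903 bases, while those of Pdgfrb, 5407 and 5423 bases, are nearly equal. Fn1, whose FPKM per count was even, has 17 transcripts from 426 to 8315 bases. The sources used here do not give the annotation release behind the table, values per transcript were not analysed here, and the part of transcript length was not tested. RefSeq lists 3 starts for Limch1 on the plus strand of chromosome 5. The 60 bases before each start are shown to set the 3 promoters, whose transcripts share 1 name in the table, side by side.
Limch1, chr5:66745829-66745888: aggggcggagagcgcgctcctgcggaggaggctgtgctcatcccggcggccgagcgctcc
Limch1, chr5:66857409-66857468: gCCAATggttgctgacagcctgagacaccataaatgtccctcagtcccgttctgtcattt
Limch1, chr5:66968368-66968427: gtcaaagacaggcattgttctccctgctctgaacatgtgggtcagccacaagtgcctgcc
The capitals mark the CCAAT of the second start, and neither of the others holds CCAAT or TATAAA in these 60 bases.

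**Figure D4:**
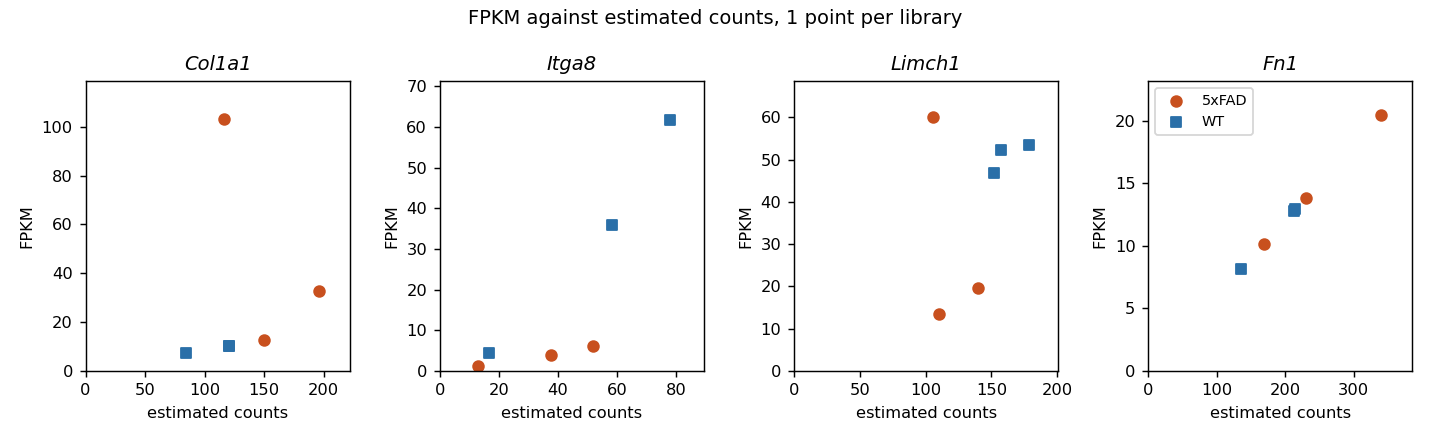
FPKM against estimated counts for Col1a1, Itga8, Limch1 and Fn1, with 1 point per library (circles, 5xFAD; squares, WT). The points of Fn1 lie on 1 line, whereas Col1a1 in 5xFAD replicate 1 has 103 FPKM on 117 counts, beside 12.8 FPKM on 150 counts in 5xFAD replicate 2.

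1 library stood out in the matrix genes. In CPM scaled with TMM factors, 5xFAD replicate 3 was the highest library for 12 of the 31 tested members (38.7%), against 12.3% of all tested genes, Fn1, Col4a1, Bgn, Mgp, Eln and Mfap4 among them. 5xFAD replicate 1 was the lowest for 9 (29.0%), against 15.5% of all tested genes. Without 5xFAD replicate 3, 8 of 31 fold changes were positive and their median was -0.62, against -0.01 over all tested genes. Col1a2, Col4a1, Mgp and Fn1 then had log2 fold changes of -0.73, -0.16, -0.63 and -0.12, against positive ones with all libraries. The 14 B cell markers were lowest among 5xFAD in that library, at 496 FPKM, and the 11 macrophage and monocyte markers were highest there of all libraries, at 562 FPKM, against 365 and 217 FPKM in 5xFAD replicates 1 and 2 and 283 to 531 FPKM in WT. In scaled CPM the macrophage and monocyte markers summed to 1936 in 5xFAD replicate 3, below 1981 in WT replicate 1. The part of these cells in the matrix levels of 5xFAD replicate 3 was not tested.

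The 37 genes were also set against the markers within each library. The log2 ratio of the members to the endothelial markers in FPKM was 0.05 ± 0.49 in 5xFAD and -0.24 ± 0.17 in WT (SD, n = 3 each), which overlap. Against the B cell markers it was -1.10, -1.29 and 0.21 in 5xFAD and 0.13, 0.61 and -0.08 in WT. Here 5xFAD replicate 3 lay within the WT range and the other 5xFAD libraries below it. Mesothelial markers, which would mark pleura, summed to at most 2.25 FPKM in a library and Wt1 was at 0 throughout.

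**Figure D5:**
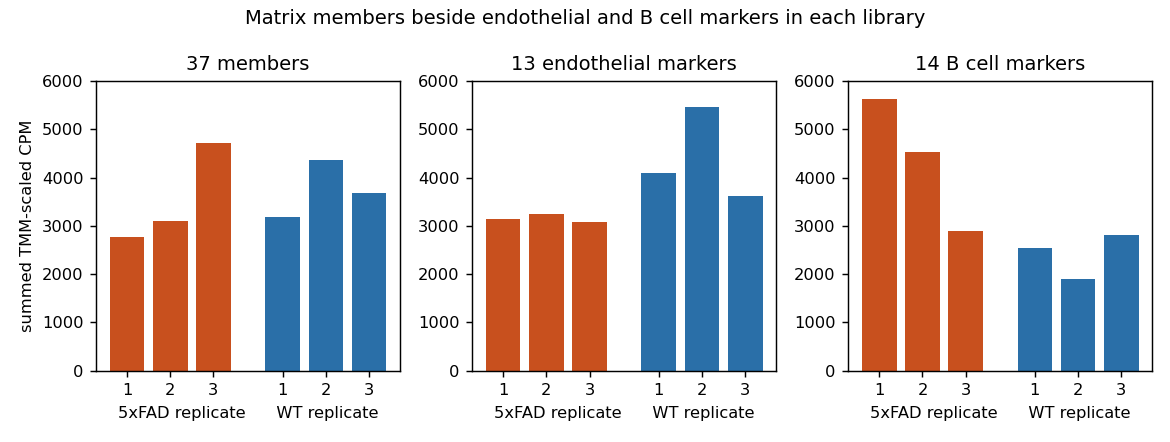
Summed CPM, scaled with TMM factors, of the 37 members, 13 endothelial markers and 14 B cell markers in each library (bars; 5xFAD left of WT). The members are highest in 5xFAD replicate 3, at 4723, where B cell markers are lowest among the 5xFAD libraries, at 2895.

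The wider programme showed no call either. Over 9 lists of other matrix, fibroblast, smooth muscle and pericyte genes, 141 genes were in the table and 84 were tested, of which 0 were higher and 0 lower by edgeR's adjusted p, where 0.114% of all tested genes were called. At an unadjusted p under 0.05, 1 was higher and 4 were lower, 5.95% of the 84, against 8.46% higher and 3.55% lower, 12.0% in all, over the 9651. Fold changes were positive for 29 and negative for 55, where 54.1% of all tested genes had a positive one, with a median of -0.21 against 0.11 over all tested genes. Positive and negative ones numbered 2 and 8 for other smooth muscle genes, 3 and 7 for other pericyte genes, and 4 and 9 for collagen processing enzymes. They numbered 4 and 5 for laminins, nidogens and perlecan, 4 and 4 for other proteoglycans and glycoproteins, and 4 and 1 for other collagen chains.

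Other lung fibroblast genes had 2 positive and 10 negative fold changes among 12 tested, with a median of -0.69. Foxf1, a transcription factor of lung mesenchyme and endothelium, had 54.9, 143 and 129 estimated counts in 5xFAD and 156, 217 and 207 in WT (log2 fold change -1.01, SE 0.39; edgeR adjusted p = 0.316), and each 5xFAD library lay below each WT library. In FPKM this also held, as it did, in the lower direction, for 4.42% of all tested genes. Foxf1 was named as the gene with the smallest p of its list. Its locus in the table holds 75 listed genes. Ces1d, a lung carboxylesterase, had 4.99, 13.2 and 16.5 estimated counts in 5xFAD and 23.7, 54.2 and 48.9 in WT (edgeR adjusted p = 0.337). Macf1, a cytoskeletal crosslinker that many cell types express, was the most abundant of that list, at 166, 115 and 120 FPKM in 5xFAD and 100.03, 91.8 and 95.7 FPKM in WT (log2 fold change 0.23, SE 0.23; edgeR adjusted p = 0.754).

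Among metalloproteinases and their inhibitors 2 of 9 tested fold changes were positive and 7 negative. Mmp9, a gelatinase that neutrophils store, had 6.98, 33.1 and 16.5 estimated counts in 5xFAD and 80.1, 43.2 and 96.7 in WT (log2 fold change -2.16, SE 0.66; edgeR adjusted p = 0.245). Each 5xFAD library lay below each WT library, and in FPKM this also held, as it did for 4.42% of all tested genes in that direction. Mmp9 was named as the gene with the smallest p of its list. The 6 neutrophil markers, with Ly6g at 0 throughout, summed to 323, 244 and 548 FPKM in 5xFAD and 500.1, 194 and 267 FPKM in WT, and in scaled CPM to 458, 295 and 574 in 5xFAD and 511, 343 and 575 in WT. Of the 5 tested, 2 had positive and 3 had negative fold changes, and their part in the Mmp9 values was not tested. Mmp3 was read in WT replicate 2 only, at 31.1 estimated counts. Timp3, the matrix-bound inhibitor and the most abundant of the list, was even at 21.7, 22.9 and 18.5 FPKM in 5xFAD and 23.4, 20.8 and 22.0 FPKM in WT.

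Other elastic fibre and microfibril genes had 4 positive and 4 negative fold changes, and 1 gene, Mfap5, was higher at an unadjusted p under 0.05. Mfap5, a microfibril glycoprotein, had 7.98, 2.84 and 10.1 estimated counts in 5xFAD and 0 in each WT library (edgeR adjusted p = 0.311). Its 5xFAD replicate 2 lay below the limit of 3 counts. In FPKM each 5xFAD library lay above each WT library, as for 13.0% of all tested genes in that direction. The most abundant of the microfibril list, Ltbp2, had 5.73, 4.45 and 9.97 FPKM in 5xFAD and 9.86, 4.05 and 32.4 FPKM in WT. Among other collagen chains the most abundant, Col16a1, had 5.12, 5.05 and 6.82 FPKM in 5xFAD and 0.288, 2.34 and 1.66 FPKM in WT, but its log2 fold change on counts was -0.03 (SE 1.27; edgeR adjusted p = 0.996). Col23a1, with the smallest p of that list, had 2.99, 7.57 and 3.67 estimated counts in 5xFAD and 0.989, 0 and 0 in WT (edgeR adjusted p = 0.502).

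Basement membrane genes outside collagen IV were read well. Lamc1, the laminin gamma 1 chain, had 96.7, 124 and 93.6 estimated counts in 5xFAD and 75.1, 93.4 and 139 in WT, and Agrn, agrin, had 11.97, 26.5 and 42.2 in 5xFAD and 41.5, 77.3 and 42.6 in WT (edgeR adjusted p = 0.522). Among collagen processing enzymes P4hb, the beta subunit of prolyl 4-hydroxylase, was both the most abundant and the gene with the smallest p, at 20.9, 88.0 and 69.7 estimated counts in 5xFAD and 121, 127 and 39.2 in WT (edgeR adjusted p = 0.569). Thbs1, thrombospondin, was the most abundant other glycoprotein, with 101, 172 and 214 estimated counts in 5xFAD and 183, 217 and 38.5 in WT. Ogn, a small proteoglycan, had 41.9, 53.0 and 19.3 estimated counts in 5xFAD and 12.9, 28.1 and 0 in WT (edgeR adjusted p = 0.644).

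The other smooth muscle list was led by Flna, filamin A, which most cells express, at 702, 769 and 538 estimated counts in 5xFAD and 764, 736 and 620 in WT (log2 fold change -0.19, SE 0.27; edgeR adjusted p = 0.851). Its enteric actin Actg2 was at 0 in all libraries. Hspb1, with the smallest p of the list, had 0, 9.46 and 12.8 estimated counts in 5xFAD and 26.7, 7.03 and 23.9 in WT (edgeR adjusted p = 0.694). Of other pericyte genes, Mcam, also endothelial, had 136, 88.0 and 103 estimated counts in 5xFAD and 113, 102 and 25.0 in WT, and Anpep had 9.97, 1.89 and 31.2 in 5xFAD and 1.98, 2.01 and 0 in WT (edgeR adjusted p = 0.451). Each of the genes named from these 2 lists overlapped between genotypes.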

How the data were processed

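RNA of lung B cells from 3 5xFAD and 3 WT samples was harvested with TRIzol from magnetically sorted, frozen cells and made into stranded total RNA libraries after ribosomal depletion, per the labels' protocols. Per the submitters' processing notes, cutadapt 1.9.3, HISAT2 2.0.4, Cufflinks and Cuffdiff were used, without stated roles, with the builds mm10 and GRCm38. The deposited table gives FPKM and count values per gene and sample, per the file headers. The deposited counts are estimated counts: between 94.0% and 97.3% of values of at least 0.5 steps were whole multiples, within 0.05, of 1 step per library close to 1. Columns of no sample numbered 0.

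Rows sharing a symbol (162 rows on 79 symbols) were summed to 22481 genes. Estimated counts were rounded and tested with edgeR 4.0.16 (R 4.3.3; quasi-likelihood, TMM), with genotype the only term. The 9651 genes averaging 1 FPKM or more entered, with Benjamini-Hochberg adjustment over all of them at 0.05. Standard errors were derived from each fold change and its F statistic. DESeq2 1.42.0 and limma 3.58.1, other scalings and filters, a replicate block and each library left out were alternatives. Sums and promoters were handled in Python 3.11.15. The edgeR step was tested on simulated counts with 50 genes changed per fold size; 16-fold changes were recovered at 70% and 1 of 70 calls was false. Libraries of a genotype differed by a chi-square per degree of freedom of 6.23 to 17.2, more than counting error alone gives. None was therefore a mere re-read of another, but this cannot show whether any samples shared an animal. The floor of 3 counts covers counting error only.

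Members and lists were chosen with earlier results of these data known. The rule gave values per library for the 2 members of each role with the highest mean FPKM and for any at an unadjusted p under 0.05, and from each other list the most abundant gene and that with the smallest p; further members were described after their values were seen. All 75 markers and 141 other genes were found, 4 and 5 of them by gene identifier under an older symbol. Loci starts were raised by 1. Of the members, 9 share a locus with another gene.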

Additional observations from a re-analysis of the deposited data

How the results depend on the processing

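No member was called under any of the 18 alternatives to the gene test: the count stayed at 0 with each scaling, filter, tool, left-out library and with a replicate block. At an unadjusted p under 0.05 there were between 0 and 5 members. The 5 were of 31 tested without 5xFAD replicate 2, where 611 of all tested genes were higher and 414 lower at that level. The count over all genes was 11, and became 7 with DESeq2 size factors, 27 with upper-quartile factors, 63 by DESeq2, 0 by limma on log2(FPKM + 1), log2(FPKM + 0.1) or quantile-normalized values, 62 with no filter, 5 from a mean of 5 FPKM, 26 with the replicate block, 6 with overlapping loci summed, and between 3 and 75 with 1 library left out. Dividing counts by each library's step, chosen after seeing the values, gave 11. Same-numbered samples did not deviate together (r between -0.02 and 0.00), so the numbers were not taken to pair samples.

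Of 285 values of the 16 named members under alternatives, 261 kept their direction and 24, in 8 members, reversed, none of them called. Col1a2 became -0.14, -0.16 and -0.18 by limma on log2(FPKM + 1), log2(FPKM + 0.1) and quantile values, and -0.11 with the block. On the same limma scales Sparc became -0.22, -0.22 and -0.26 and Des became 0.48, 0.69 and 0.32, with 0.41 under the block. Col6a3 became 0.11 and 0.26 by limma on log2(FPKM + 1) and log2(FPKM + 0.1). Col4a1 became -0.067 with overlapping loci summed. With 1 library left out, Col1a2 ranged from -0.73 to 0.30, Col4a1 from -0.16 to 0.39, Mgp from -0.63 to 0.59 and Fn1 from -0.12 to 0.39, the lowest each time without 5xFAD replicate 3. Col6a3 ranged from -0.93 to 0.18 and Npnt from -1.27 to 0.11, the highest without WT replicate 2, and Des from -1.03 to 1.53, the highest without WT replicate 3. Mgp was also negative without WT replicate 1 or 3, at -0.02 and -0.09, and Col1a2 without WT replicate 2, at -0.05. The cause was not tested.

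The summed fibroblast genes had a log2 difference of -0.89 in FPKM, against -0.63 in CPM of the table total and -0.62 with TMM factors, and ranged from -1.04 to -0.77 with 1 library left out. The other sums moved by less than 1 SD. Among them the matrix sum changed direction, from 0.06 in FPKM to -0.07 in CPM of the table total, -0.06 with TMM factors, -0.19 without 5xFAD replicate 3 and -0.05 without WT replicate 3. The contractile genes Acta2, Myh11, Tagln and Cnn1 had under 25 counts in every library, and low abundance and depth were not told apart.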
